A study of Mus musculus with 17 samples.

Results

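The genes that couple the electrical excitation of a muscle fibre to calcium release, and that store and recover the calcium, were followed in 17 libraries of C2C12 cells. The list held 10 genes chosen by symbol: the channel genes Cacna1s and Cacng1, the adaptor Stac3, the release channel Ryr1, the junction genes Jph2 and Trdn, the store genes Casq1 and Casq2, the pump gene Atp2a1 and the pump regulator Sln. A row was present for 9 of them among the 15062 genes of the deposited count table. Sln, which encodes the pump inhibitor sarcolipin, had no row there and is not analysed here. Every gene in that table had reached 10 counts in at least 3 libraries, so the 9 genes are those that passed this limit in these samples and not all members of the list.

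C2C12 is an immortalized mouse myoblast line, which divides in serum-rich medium and can form multinucleated myotubes when serum is withdrawn. Per the labels, all cells were grown in DMEM with 10% fetal bovine serum, and no differentiation medium is named. The groups carried the construct pMSCV (the name of a retroviral vector, and the reference here), SRF, or 1 of 4 fusions of SRF with another gene: SRF-RELA, SRF-FOXO1, SRF-PDGFRB and SRF-ICA1L. The SRF protein, serum response factor, is a transcription factor of muscle and cytoskeletal genes. Each group had 3 libraries, except SRF-PDGFRB with 2. The labels do not say whether the libraries of a group came from separate infections or cultures, so p-values measure only the spread between these libraries.

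Excitation-contraction coupling takes place at the triad, where a transverse tubule of the surface membrane meets the sarcoplasmic reticulum. The voltage sensor CaV1.1 in the tubule opens the ryanodine receptor RyR1 in the reticulum through physical contact, calcium leaves the store to start contraction, and the SERCA pump returns it. Calsequestrin buffers calcium inside the store, triadin anchors it near the release channel, and junctophilins hold both membranes together. The genes of this apparatus are switched on largely as myoblasts differentiate.

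Library totals ran from 20901442 to 23543734 counts. Levels are given in CPM, the usual measure of counts relative to library size, with sizes adjusted by TMM (trimmed mean of M values), a scaling that leaves out the most extreme genes. Srf itself was at 66.6 to 93.8 CPM in the pMSCV libraries and at 678 to 1673 CPM in the SRF libraries. It was at 121 to 279 CPM in SRF-ICA1L, 85.0 to 155 CPM in SRF-RELA, 71.8 to 105 CPM in SRF-FOXO1 and 70.5 to 81.4 CPM in SRF-PDGFRB, so the Srf count shows the construct plainly in SRF and stands above pMSCV in each SRF-ICA1L library. The lowest SRF-RELA library and libraries of SRF-FOXO1 and SRF-PDGFRB lay within the pMSCV range, so Srf does not check those labels. The fused partners' own rows overlapped pMSCV too: Foxo1 was at 22.8 to 38.5 CPM in SRF-FOXO1 against 16.5 to 28.7 CPM in pMSCV, and Ica1l at 0.289 to 0.938 CPM in SRF-ICA1L against 0.264 to 0.374 CPM. Pdgfrb was at 196 and 247 CPM in SRF-PDGFRB against 103 to 345 CPM in pMSCV, and Rela at 72.2 to 98.5 CPM in SRF-RELA against 82.3 to 96.5 CPM. The replicate numbers in the titles carried shared variation: same-numbered libraries of SRF-RELA, SRF-ICA1L, SRF and pMSCV deviated from their group means together, with correlations across genes of 0.392 to 0.789 in 18 pairs. What a number stands for is not given in the labels. Results are therefore given from 1 fit over all 17 libraries and, where it changed a call, from a fit over these 12 libraries with the replicate number as a block.

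The RefSeq promoter table (build GRCm38.p6) matched 6 of the 10 genes. Each window runs from 250 bases before to 50 bases after the annotated start. The windows of 4 genes are printed: those of Cacna1s, Casq2 and Atp2a1, which were among the genes called lower with the block, and that of Jph2, which was not. Capitals mark every match to the E-box (CANNTG, the motif of MyoD-family factors) and to the MEF2 site on either strand. No marked match overlaps another. The Cacna1s window is chr1:136052561-136052860 on the plus strand, Casq2 chr3:102086165-102086464 on the plus strand, Atp2a1 chr7:126463024-126463323 on the minus strand and Jph2 chr2:163397944-163398243 on the minus strand.
Cacna1s: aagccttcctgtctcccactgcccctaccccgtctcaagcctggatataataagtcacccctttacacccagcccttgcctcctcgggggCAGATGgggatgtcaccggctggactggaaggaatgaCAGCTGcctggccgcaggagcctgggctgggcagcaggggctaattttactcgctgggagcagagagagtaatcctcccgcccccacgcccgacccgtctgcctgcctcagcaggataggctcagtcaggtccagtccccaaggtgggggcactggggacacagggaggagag
Casq2: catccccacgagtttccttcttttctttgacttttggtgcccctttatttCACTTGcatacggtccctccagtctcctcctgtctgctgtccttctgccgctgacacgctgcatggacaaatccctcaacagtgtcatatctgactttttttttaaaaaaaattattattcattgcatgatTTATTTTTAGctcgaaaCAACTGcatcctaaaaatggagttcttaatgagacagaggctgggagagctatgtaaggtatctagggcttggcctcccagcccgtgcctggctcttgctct
Atp2a1: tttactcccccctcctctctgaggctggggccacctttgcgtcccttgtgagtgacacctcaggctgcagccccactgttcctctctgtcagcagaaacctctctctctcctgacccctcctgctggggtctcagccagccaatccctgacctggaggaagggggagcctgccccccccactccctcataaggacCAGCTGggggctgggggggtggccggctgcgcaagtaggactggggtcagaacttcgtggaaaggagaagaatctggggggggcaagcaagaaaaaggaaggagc
Jph2: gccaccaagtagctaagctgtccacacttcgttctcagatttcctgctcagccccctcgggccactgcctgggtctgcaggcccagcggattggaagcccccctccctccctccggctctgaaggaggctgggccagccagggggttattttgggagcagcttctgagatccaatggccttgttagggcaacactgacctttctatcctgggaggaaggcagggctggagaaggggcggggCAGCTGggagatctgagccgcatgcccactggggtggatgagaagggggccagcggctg
Cacna1s held 2 E-boxes, at 160 and 123 bases before the start, counted to the first base of the match. Casq2 held 2 E-boxes and 1 MEF2 site, which begins 69 bases before the start. Atp2a1 and Jph2 held 1 E-box each. In the windows not printed, Casq1 held 2 E-boxes and Ryr1 held none of these motifs. None of the matched windows held a CArG box, the motif that SRF binds. Over all 32851 promoter windows of this length, 72.3% held an E-box, 3.19% a MEF2 site and 1.63% a CArG box, so an E-box is common and does not set these genes apart. A match is a description of the letters and not a binding site.

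Per kilobase of exon, the levels of the 9 genes in pMSCV spanned a wide range. The exon length of each gene was the union of all its annotated transcripts (GENCODE M21, GRCm38). Cacng1 was the most abundant, with a median of 78.6 CPM per kb (54.7 to 79.4), followed by Jph2 with 17.8 (10.9 to 20.2). The next 3 genes had overlapping ranges: Stac3 with a median of 3.97 CPM per kb, Casq2 with 3.10 and Atp2a1 with 2.72. Ryr1 had a median of 0.895 CPM per kb, Trdn 0.459, Casq1 0.402 and Cacna1s 0.253, and each of these overlapped its neighbour in the order. The pore subunit of the voltage sensor, Cacna1s, was thus the lowest per kilobase and its gamma subunit Cacng1 the highest.

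**Figure D1:**
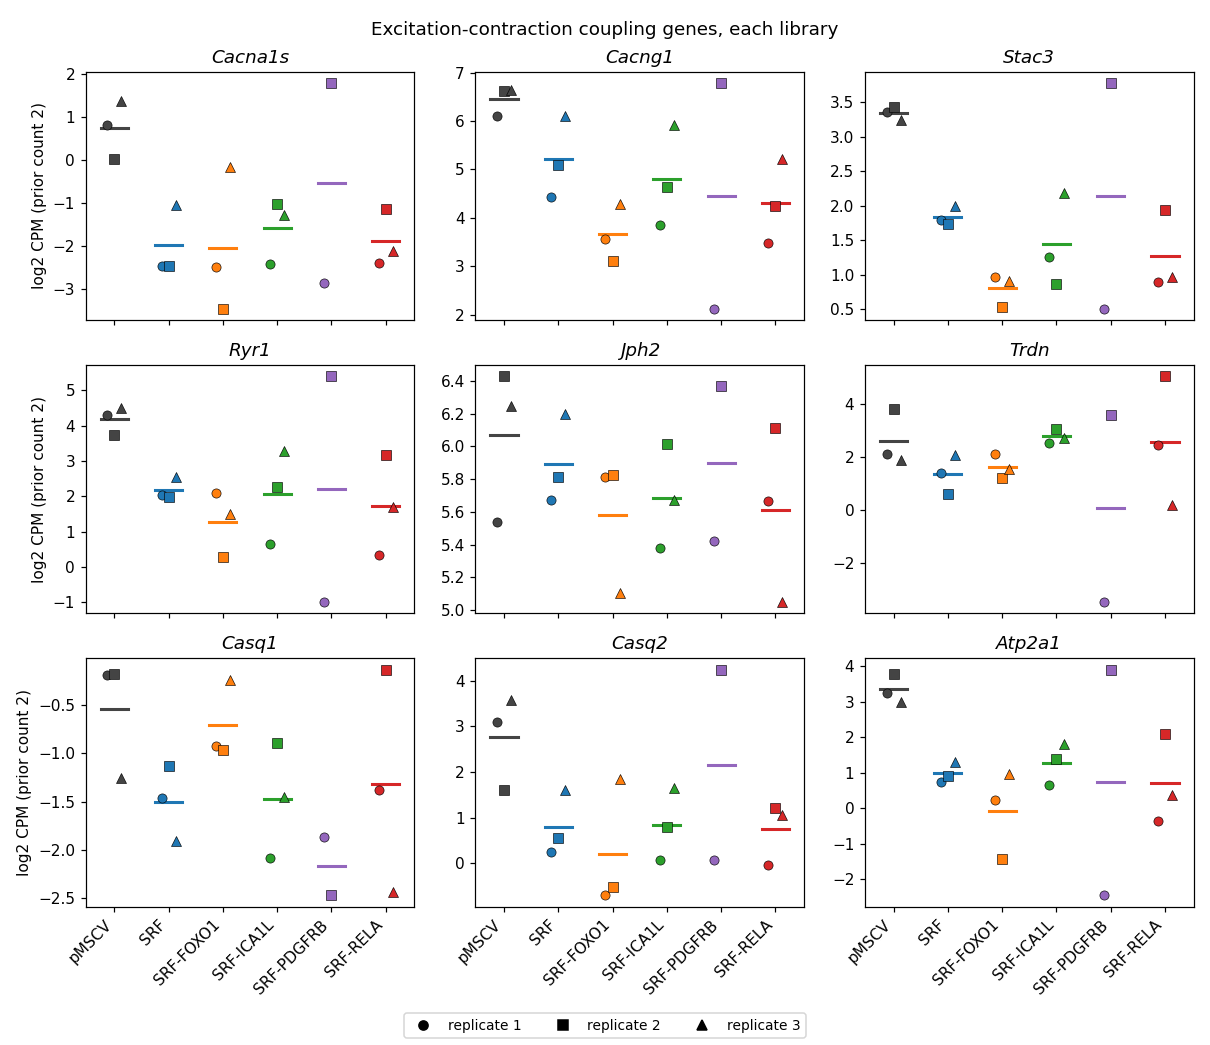
Each panel plots 1 gene, with log2 CPM (prior count 2) on the vertical axis and the 6 groups on the horizontal axis. Points are libraries, with the marker shape giving the replicate number, and the bar is the group mean. For Stac3 and Atp2a1 every library of SRF, SRF-RELA, SRF-ICA1L and SRF-FOXO1 lies below all 3 pMSCV libraries, and the 2 SRF-PDGFRB libraries lie at opposite ends.

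Against pMSCV, the voltage sensor, release channel, calsequestrin 2 and pump genes had lower mean levels in SRF-RELA, SRF-ICA1L, SRF-FOXO1 and SRF, while Jph2, Trdn and Casq1 differed less or varied within groups. The voltage sensor gene Cacna1s is in the table through its pMSCV level, so its lower level supports nothing. The medians of the 9 genes include it. In the fit over all 17 libraries, edgeR's quasi-likelihood test called none of the 9 genes at an adjusted p under 0.05 (Benjamini-Hochberg over 15062 genes) in any comparison with pMSCV. The share of all genes called was 0.71% for SRF-FOXO1, 0.0199% for SRF-PDGFRB, 0.00664% for SRF, 0% for SRF-ICA1L and 0% for SRF-RELA, so few genes of any kind passed in this fit. The median log2 fold change of the 9 genes was -2.48 in SRF-FOXO1, -2.03 in SRF-RELA, -1.80 in SRF-ICA1L and -1.52 in SRF. Over all genes the same medians were within 0.02 of 0 in these 4 lines. In these bulk samples, fewer differentiating cells and less RNA per cell cannot be told apart.

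At an unadjusted p under 0.05, 5 of 9 genes were lower in SRF-FOXO1 (10.6% of all genes were), 5 in SRF-RELA (4.17%), 4 in SRF (2.14%), 1 in SRF-ICA1L (3.27%) and 1 in SRF-PDGFRB (3.11%). Without the 2 SRF-PDGFRB libraries, a choice made after seeing the data, these counts were 6 in SRF-FOXO1 (11.1% of all genes), 6 in SRF-RELA (5.07%), 5 in SRF (2.66%) and 6 in SRF-ICA1L (4.03%), where it had been 1. In that fit none of the 9 was called in SRF-RELA, SRF-ICA1L or SRF. Every library lay below every pMSCV library for 4 of the 9 genes in SRF, against 5.15% of all genes. The same held for 6 genes in SRF-RELA (5.91% of all genes), 5 in SRF-FOXO1 (11.6%) and 5 in SRF-ICA1L (5.54%). Cacna1s, Stac3, Ryr1 and Atp2a1 were in this count for all 4 lines, Cacng1 for the 3 fusions among them and Casq2 for SRF-RELA. Cacna1s is in the table through its pMSCV level, so its place in this count supports nothing. The medians and counts over the 9 genes include it. DESeq2 on the same libraries called 4 genes lower in SRF-FOXO1 (4.66% of the genes it tested) and none in the other lines.

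With the replicate number as a block over the 12 libraries, Cacna1s, Cacng1, Stac3, Casq2 and Atp2a1 were called lower in SRF-ICA1L, where 1.63% of all genes were called lower. These 5 genes were also called lower in SRF-RELA, where 3.35% of all genes were. In SRF none of the 9 was called, with 0.00664% of all genes called lower, although 7 of the 9 were lower at an unadjusted p under 0.05 (7.64% of all genes) and the smallest adjusted p was 0.0980. The log2 fold changes of these 5 genes with the block ran from -2.04 to -3.01 in SRF-RELA, from -1.69 to -2.62 in SRF-ICA1L and from -1.30 to -3.16 in SRF. The far end of each range is Cacna1s, which is in the table through its pMSCV level, so its calls support nothing. Without it the ranges ended at Atp2a1, with -2.51 in SRF-RELA, -2.09 in SRF-ICA1L and -2.41 in SRF. The fits share the pMSCV libraries, so the lines' values are not independent of one another.

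The block calls rested on individual libraries in SRF-ICA1L. Leaving out 1 of the 12 libraries at a time gave 0 to 6 called genes there, with 0 without SRF-ICA1L replicate 1 or replicate 2. It gave 1 without pMSCV replicate 1, 2 without SRF replicate 1 or SRF-ICA1L replicate 3, and 3 without pMSCV replicate 3, SRF replicate 3 or SRF-RELA replicate 1. In SRF-RELA the count ran from 1 to 6, with 1 without pMSCV replicate 1 or SRF-RELA replicate 1 and 2 without SRF-RELA replicate 3. In SRF it ran from 0 to 1. These counts include Cacna1s, which is in the table through its pMSCV level. The number of calls over all genes moved too, from 23 to 570 in SRF-ICA1L, from 239 to 1217 in SRF-RELA and from 0 to 80 in SRF. Cacng1 was called in 12 of 12 such fits for SRF-RELA and in 10 of 12 for SRF-ICA1L, and Stac3 in 10 and 9.

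**Figure D2:**
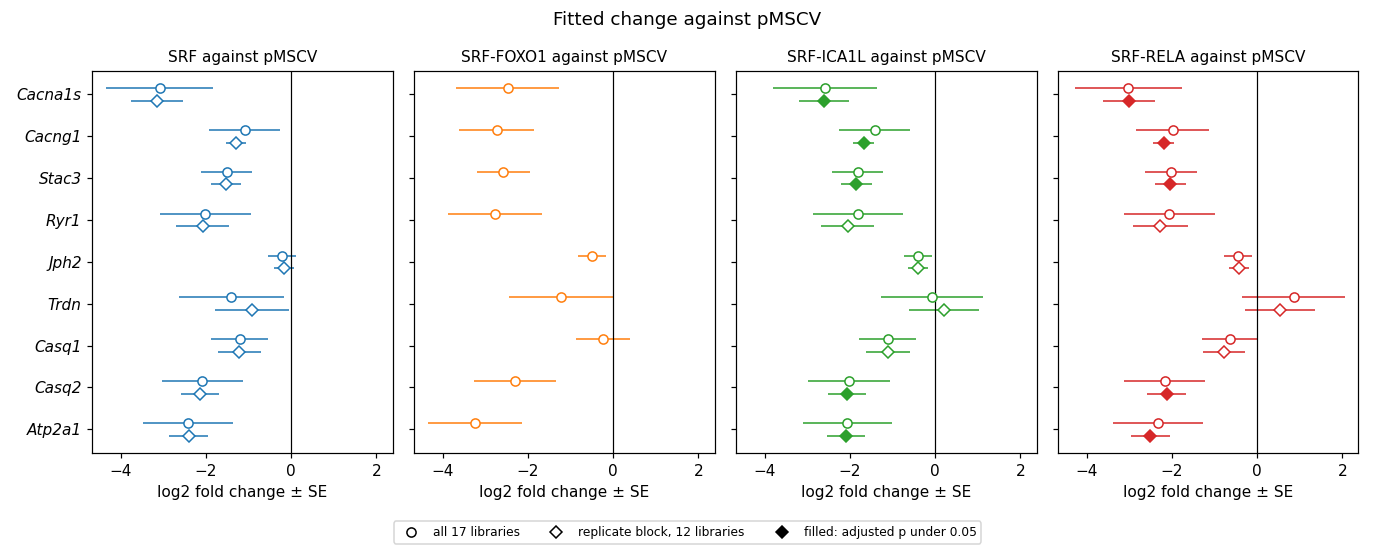
Points give the log2 fold change against pMSCV on the horizontal axis, with bars of 1 standard error, for 9 genes in 4 lines. Circles are the fit over all 17 libraries, diamonds the fit over 12 libraries with the replicate block (not run for SRF-FOXO1), and filled symbols have an adjusted p under 0.05. In the SRF panel Jph2 lies nearest to 0 of the 9 genes, at -0.21 over 17 libraries and -0.17 with the block. The 5 filled genes in SRF-ICA1L recur in SRF-RELA. They include Cacna1s, which is in the table through its pMSCV level, so its calls support nothing.

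Cacna1s (ENSMUSG00000026407, chromosome 1, 136052750 to 136119822, plus strand, GRCm38) encodes the pore and voltage sensor of CaV1.1. It stood at 1.66, 0.926 and 2.48 CPM in pMSCV replicates 1 to 3 and at 0.0909, 0.0914 and 0.392 CPM in SRF. The SRF-FOXO1 libraries were at 0.0872, 0 and 0.803 CPM, SRF-ICA1L at 0.0963, 0.402 and 0.320 CPM, and SRF-RELA at 0.0979, 0.365 and 0.140 CPM. All 12 of these libraries were below the lowest pMSCV library. They rest on few reads, 0 to 18 counts each against 21 to 53 in pMSCV. Cacna1s is the 1 gene of the 9 that reached 10 counts in fewer than 3 libraries outside pMSCV (2 libraries). It is in the table through its pMSCV level, so its lower values elsewhere came with that limit and support nothing. With the block the log2 fold change was -2.62 (SE 0.58, adjusted p = 0.0420, edgeR) in SRF-ICA1L and -3.01 (SE 0.61, adjusted p = 0.0180) in SRF-RELA. Its exons overlap the antisense gene Gm37759 over 19.98% of their length, and whether counting used the strand is not given in the sources used here.

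Cacng1 (ENSMUSG00000020722, chromosome 11, 107703218 to 107716522, minus strand) encodes the gamma subunit of the muscle calcium channel, which modulates the current. Its values were 68.3, 98.2 and 99.1 CPM in pMSCV and 21.4, 33.8 and 69.0 CPM in SRF. They were 11.8, 8.53 and 19.5 CPM in SRF-FOXO1, 14.4, 24.8 and 59.97 CPM in SRF-ICA1L, and 11.02, 18.9 and 37.1 CPM in SRF-RELA. SRF replicate 3 was level with pMSCV replicate 1, and SRF-FOXO1, SRF-RELA and SRF-ICA1L did not overlap pMSCV. The log2 fold change with the block was -1.69 (SE 0.24, adjusted p = 0.0102, edgeR) in SRF-ICA1L and -2.19 (SE 0.25, adjusted p = 0.00251) in SRF-RELA, and -1.30 (SE 0.24, adjusted p = 0.0980) in SRF.

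Stac3 (ENSMUSG00000040287, chromosome 10, 127501686 to 127508823, plus strand) encodes an adaptor that CaV1.1 needs to reach the triad and signal to RyR1. Its pMSCV values were 10.1, 10.7 and 9.35 CPM, the tightest of the 9 genes. SRF was at 3.36, 3.25 and 3.88 CPM, SRF-FOXO1 at 1.87, 1.36 and 1.78 CPM, SRF-ICA1L at 2.31, 1.74 and 4.44 CPM, and SRF-RELA at 1.76, 3.74 and 1.87 CPM. The highest of these 12 libraries was below the lowest pMSCV library. Stac3 had the smallest adjusted p of the 9 genes in the fit over 17 libraries, 0.0555 (edgeR) in SRF-FOXO1, at a log2 fold change of -2.58 (SE 0.62). With the block it was -1.85 (SE 0.36, adjusted p = 0.0249) in SRF-ICA1L and -2.04 (SE 0.36, adjusted p = 0.0102) in SRF-RELA.

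Ryr1 (ENSMUSG00000030592, chromosome 7, 29003344 to 29125179, minus strand) encodes the calcium release channel of skeletal muscle. It was at 19.6, 13.2 and 22.5 CPM in pMSCV and at 3.998, 3.89 and 5.75 CPM in SRF. SRF-FOXO1 was at 4.14, 1.13 and 2.72 CPM, SRF-ICA1L at 1.49, 4.73 and 9.57 CPM, and SRF-RELA at 1.18, 8.81 and 3.12 CPM. Every library was below pMSCV, but the SRF-ICA1L and SRF-RELA libraries differed several-fold among themselves. Ryr1 was not called in SRF-ICA1L or SRF-RELA with the block (log2 fold change -2.06, SE 0.62, adjusted p = 0.113, and -2.28, SE 0.64, adjusted p = 0.0668, edgeR).

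Jph2 (ENSMUSG00000017817, chromosome 2, 163336242 to 163397993, minus strand) encodes junctophilin 2, which bridges the tubule and store membranes. It was at 46.4, 86.0 and 75.8 CPM in pMSCV, 51.0, 56.0 and 73.3 CPM in SRF, and 56.1, 56.5 and 34.3 CPM in SRF-FOXO1. The SRF-ICA1L libraries were at 41.5, 64.5 and 50.9 CPM and the SRF-RELA libraries at 50.8, 69.0 and 33.0 CPM. The groups overlapped throughout. Over 17 libraries, its log2 fold changes against pMSCV in these lines ran from -0.21 (SE 0.33) in SRF to -0.50 (SE 0.33) in SRF-FOXO1, and none was called.

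Trdn (ENSMUSG00000019787, chromosome 10, 33080554 to 33476709, plus strand) encodes triadin. It was at 4.29, 13.9 and 3.65 CPM in pMSCV, 2.59, 1.46 and 4.14 CPM in SRF, and 4.27, 2.25 and 2.85 CPM in SRF-FOXO1. SRF-ICA1L was at 5.73, 8.39 and 6.55 CPM and SRF-RELA at 5.39, 33.0 and 1.07 CPM. SRF-RELA replicate 2 held the highest Trdn level of all 17 libraries, and pMSCV replicate 2 stood over 3-fold above the other pMSCV libraries. The direction in SRF-RELA hung on that library: the log2 fold change was 0.85 (SE 1.20) with all libraries and -1.17 without SRF-RELA replicate 2. In SRF-ICA1L it was -0.08 (SE 1.20) over 17 libraries and 0.20 (SE 0.82) with the block.

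Casq1 (ENSMUSG00000007122, chromosome 1, 172209894 to 172219868, minus strand) and Casq2 (ENSMUSG00000027861, chromosome 3, 102086415 to 102146514, plus strand) encode the calsequestrins, the former the main isoform of fast muscle and the latter that of heart, also made in slow and developing skeletal muscle. Casq1 was barely detected, at 2 to 18 counts in a library, and at 0.784, 0.793 and 0.327 CPM in pMSCV. Casq1 ranges overlapped pMSCV in SRF (0.174 to 0.366 CPM), SRF-FOXO1 (0.422 to 0.758 CPM), SRF-ICA1L (0.144 to 0.446 CPM) and SRF-RELA (0.0933 to 0.821 CPM). Casq2 was at 8.48, 2.95 and 11.8 CPM in pMSCV, 1.09, 1.37 and 2.96 CPM in SRF, and 0.523, 0.610 and 3.52 CPM in SRF-FOXO1. SRF-ICA1L was at 0.963, 1.65 and 3.07 CPM and SRF-RELA at 0.881, 2.24 and 2.01 CPM. The low pMSCV replicate 2 overlapped the highest SRF, SRF-FOXO1 and SRF-ICA1L libraries, and no SRF-RELA library reached it. The block gave Casq2 a log2 fold change of -2.08 in SRF-ICA1L (SE 0.45, adjusted p = 0.0396, edgeR) and of -2.13 in SRF-RELA (SE 0.46, adjusted p = 0.0235).

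Atp2a1 (ENSMUSG00000030730, chromosome 7, 126445858 to 126463108, minus strand) encodes SERCA1, the calcium pump of fast skeletal muscle. It was at 9.45, 13.6 and 7.90 CPM in pMSCV and at 1.59, 1.78 and 2.35 CPM in SRF. SRF-FOXO1 was at 1.09, 0.281 and 1.87 CPM, SRF-ICA1L at 1.49, 2.50 and 3.39 CPM, and SRF-RELA at 0.686, 4.20 and 1.21 CPM. None of the 12 libraries reached the lowest pMSCV library. The log2 fold change with the block was -2.09 (SE 0.45, adjusted p = 0.0366, edgeR) in SRF-ICA1L and -2.51 (SE 0.46, adjusted p = 0.0113) in SRF-RELA. Its exons share 21.9% of their length with Rabep2 on the opposite strand.

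For SRF-FOXO1, the calls changed with the libraries fitted, the model term and the software. In a fit without the SRF-PDGFRB libraries, chosen after seeing the data, 3 of the 9 genes were called lower against pMSCV, where 2.32% of all genes were. These were Atp2a1 (log2 fold change -3.24, SE 0.70, adjusted p = 0.0254, edgeR), Cacng1 (-2.73, SE 0.60, adjusted p = 0.0280) and Stac3 (-2.58, SE 0.38, adjusted p = 0.00655). The fold changes were the same to 2 decimals in the fit over 17 libraries, where their standard errors were 1.11, 0.88 and 0.62.

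Each line was also set against the pMSCV library of its own replicate number. Of 27 such differences a line, 25 were below 0 in SRF, 25 in SRF-ICA1L and 23 in SRF-RELA. Cacna1s, Cacng1, Stac3, Ryr1, Casq2 and Atp2a1 were lower in 9 of 9, Casq1 in 8, Jph2 in 7 and Trdn in 4. Atp2a1 stood at 13.1% to 29.8% of the same-numbered pMSCV library in SRF, 15.8% to 42.9% in SRF-ICA1L and 7.25% to 30.9% in SRF-RELA. Cacng1 stood at 31.4% to 69.6%, 21.1% to 60.5% and 16.1% to 37.4%. These are descriptions, since the 3 lines share the pMSCV libraries. The share of such differences below 0 over all genes is not given here, so these counts do not set the 9 genes apart. They include Cacna1s, which is in the table through its pMSCV level.

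**Figure D3:**
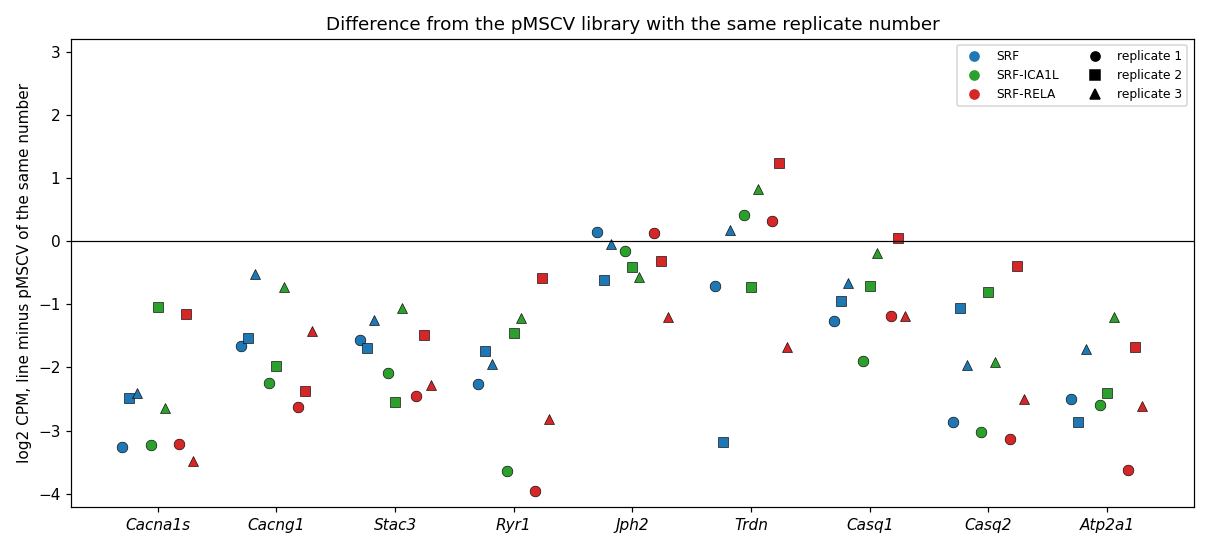
The vertical axis is the log2 CPM of a library minus that of the pMSCV library with the same replicate number, for 9 genes in SRF, SRF-ICA1L and SRF-RELA. Colours are lines and marker shapes replicate numbers. Every point of Cacna1s, Cacng1, Stac3, Ryr1, Casq2 and Atp2a1 is below 0, and Trdn lies on both sides.

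Replicate number itself was tested over the 12 libraries as a term of the fit. Of the 9 genes only Cacng1 was called, against 51.4% of all genes. Cacng1 was 0.67 higher on the log2 scale in replicates 2 than in replicates 1 and 1.52 higher in replicates 3 (adjusted p = 0.00131, edgeR's quasi-likelihood F-test). Replicate 3 held the highest Cacng1 level in each of the 4 groups.

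Against SRF, none of the 9 genes was called in the fit over 17 libraries, in SRF-PDGFRB (0.0531% of all genes called), SRF-FOXO1 (0.00664%), SRF-RELA (0.00664%) or SRF-ICA1L (0%). At an unadjusted p under 0.05, 2 genes were higher in SRF-PDGFRB (3.52% of all genes) and none of the 9 passed in the other 3 lines. DESeq2 called none in these 4 comparisons. The median log2 difference from SRF was 0.10 in SRF-ICA1L, -0.06 in SRF-RELA and -0.30 in SRF-FOXO1. In SRF-PDGFRB it was 1.15 with both libraries and -1.94 without replicate 2, so its direction rests on that library. With the block over 12 libraries none was called in SRF-ICA1L (0.0929% of all genes) or SRF-RELA (0.644%). Cacng1 was lower than in the same-numbered SRF library in all 3 pairs of SRF-ICA1L, at 67.1% to 86.9%, and of SRF-RELA, at 51.4% to 55.9%. Trdn was higher in all 3 pairs of SRF-ICA1L, at 158% to 574%. Over the 9 genes, 12 of 27 such differences were below 0 in SRF-ICA1L and 16 of 27 in SRF-RELA. The share over all genes is not given here. The fitted direction of Cacng1 in SRF-ICA1L against SRF also changed with the library left out.

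Same-numbered libraries of SRF-FOXO1 and SRF correlated at 0.220 to 0.330, below the 0.392 to 0.789 of the 18 pairs above. Those of SRF-PDGFRB and SRF correlated at 0.271 for replicate 1 and -0.392 for replicate 2. Values of this size do not establish pairing. With the number as a block in SRF-FOXO1 and SRF alone, Cacng1 was called lower in SRF-FOXO1, where 1.51% of all genes were. Its log2 difference was -1.56 (SE 0.25, adjusted p = 0.0477, edgeR), and every SRF-FOXO1 library was below every SRF library. Stac3 was next, at -1.07 (SE 0.31, adjusted p = 0.0838), and Ryr1, Casq2 and Atp2a1 were not called. Over 17 libraries, with or without the block, none of the 9 genes was called in SRF-FOXO1 against SRF.

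The 2 SRF-PDGFRB libraries stood at opposite ends of the series, so each library is given on its own, with no fold change of a single gene for this line. Replicate 1 was below every pMSCV library for 9 of 9 genes (24.6% of all genes) and was the lowest of all 17 libraries for 5 of them (8.37% of all genes). Cacna1s, among the 9, is in the table through its pMSCV level. Replicate 2 was above every pMSCV library for 6 of 9 genes (19.9% of all genes), Cacna1s, Cacng1, Stac3, Ryr1, Casq2 and Atp2a1, and was the highest of all 17 for those 6 (4.38% of all genes). Ryr1 was at 0.413 CPM in replicate 1 and 41.8 CPM in replicate 2, a ratio of 101, the widest among the genes with over 3 counts in replicate 1. Cacng1 was at 4.27 and 110 CPM, Casq2 at 0.964 and 18.9 CPM, and Stac3 at 1.33 and 13.6 CPM. Atp2a1 had 2 counts in replicate 1 and 333 in replicate 2, a ratio of 107.5 with replicate 1 set to a floor of 3 counts. This ratio is not a lower bound, since counting error at so few counts is not in it. The pump and store anchor genes were thus near or at 0 in 1 library and at the pMSCV level or above in the other. Trdn had 0 and 272 counts, a ratio of 87.8 on the same floor, and Cacna1s 1 and 75. Jph2 differed less, at 42.8 and 82.7 CPM, and Casq1 was at 4 and 2 counts. The differentiated muscle markers summed to 10.9 CPM in replicate 1 and 725 CPM in replicate 2.

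The 9 genes were not alike in how they followed the rest of the list. Across the 17 libraries, the Pearson correlation of a gene's log2 CPM with the mean of the other 8 was 0.964 for Atp2a1, 0.945 for Ryr1, 0.889 for Stac3, 0.861 for Cacna1s, 0.841 for Cacng1 and 0.778 for Casq2. It was 0.613 for Trdn, 0.577 for Jph2 and 0.170 for Casq1. Over all 36 pairs of the 9 genes the correlation ran from -0.01 to 0.954, with a median of 0.600. These are descriptions over libraries that share groups and replicate numbers, and the wide gap between the SRF-PDGFRB libraries enters all of them.

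The genes outside the list whose pattern was most like its mean, out of 11416 candidates, were Myl1 (Pearson correlation 0.982 over 17 libraries), Chrng (0.979), Tnnt3 (0.962), Adamts7 (0.951) and Tnni2 (0.947). Myl1 encodes a fast myosin light chain, Chrng the embryonic subunit of the muscle acetylcholine receptor, Tnnt3 and Tnni2 fast troponins and Adamts7 a secreted metalloprotease. Myl1 ran from 15.3 to 19.3 CPM in pMSCV and from 2.38 to 5.19 CPM in SRF. Tnni2 ran from 9.77 to 11.5 CPM in pMSCV and from 0.914 to 3.70 CPM in SRF.

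Markers of muscle differentiation moved with the list. Of 12 differentiated skeletal muscle markers 9 were in the table, and Myh8, Tnnc2 and Actn2 had no row. The 9 summed to 160 to 336 CPM in pMSCV and to 36.8 to 112 CPM in SRF. They summed to 39.9 to 75.3 CPM in SRF-FOXO1, 59.2 to 111 CPM in SRF-ICA1L and 38.0 to 301 CPM in SRF-RELA. Their mean log2 level correlated with that of the 9 coupling and store genes at 0.974 over 17 libraries. Their part in the result was not tested. With the block, 1 of the 9 markers was called lower in SRF-ICA1L (1.63% of all genes), 2 in SRF-RELA (3.35%) and 0 in SRF (0.00664%). Myog, which encodes the differentiation factor myogenin, was called in both fusions. Its log2 fold change was -3.05 in SRF-RELA against -2.45 in SRF-ICA1L. Myh3, which encodes embryonic myosin heavy chain, was called in SRF-RELA (-3.13). Acta1, the skeletal muscle actin gene, was at 47.8, 160 and 24.9 CPM in SRF-RELA replicates 1 to 3, against 46.2, 31.2 and 107 CPM in pMSCV.

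The labelled cell type was checked on myoblast markers, of which 6 of 6 were in the table. They summed to 1211 to 1668 CPM in pMSCV, 607 to 1228 CPM in SRF, 369 to 967 CPM in SRF-ICA1L and 278 to 607 CPM in SRF-RELA. They were at 163 to 210 CPM in SRF-FOXO1, and at 83.1 and 1859 CPM in the 2 SRF-PDGFRB libraries. With the block Myod1, Des, Cdh15 and Chrna1 were called lower in SRF-RELA as in SRF-ICA1L, and Myf5 in SRF-RELA. Of all genes, 3.35% were called lower in SRF-RELA and 1.63% in SRF-ICA1L. Their mean log2 level correlated with that of the coupling and store genes at 0.831, and their part in the result was not tested.

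Proliferation markers, 5 of 5 in the table, summed to 719 to 2477 CPM in pMSCV and 1850 to 2523 CPM in SRF, and correlated with the list at -0.03. Of cardiac markers 2 of 6 were in the table, at a sum of 2.14 to 14.2 CPM, with Myh6, Myl7, Nppa and Tbx5 without a row. Smooth muscle markers, 5 of 5, summed to 275 to 2535 CPM in pMSCV and 1035 to 4035 CPM in SRF. Of these, Myh11 and Lmod1 were called higher with the block in SRF-RELA, where 2.9% of all genes were. Fibroblast markers, 4 of 4, summed to 52.2 to 503 CPM in pMSCV and 92.7 to 1922 CPM in SRF-FOXO1. Macrophage markers (2 of 4, without Ptprc and Adgre1) stayed between 2.28 and 7.62 CPM, and the endothelial marker Cdh5, the 1 of 3 in the table, between 0 and 2.72 CPM. The mean log2 level of the macrophage markers correlated with that of the coupling and store genes at -0.718 over the 17 libraries. The same correlation was 0.509 for the cardiac markers, 0.376 for the fibroblast markers, 0.363 for Cdh5 and -0.259 for the smooth muscle markers. The part of these markers in the result was not tested.

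**Figure D4:**
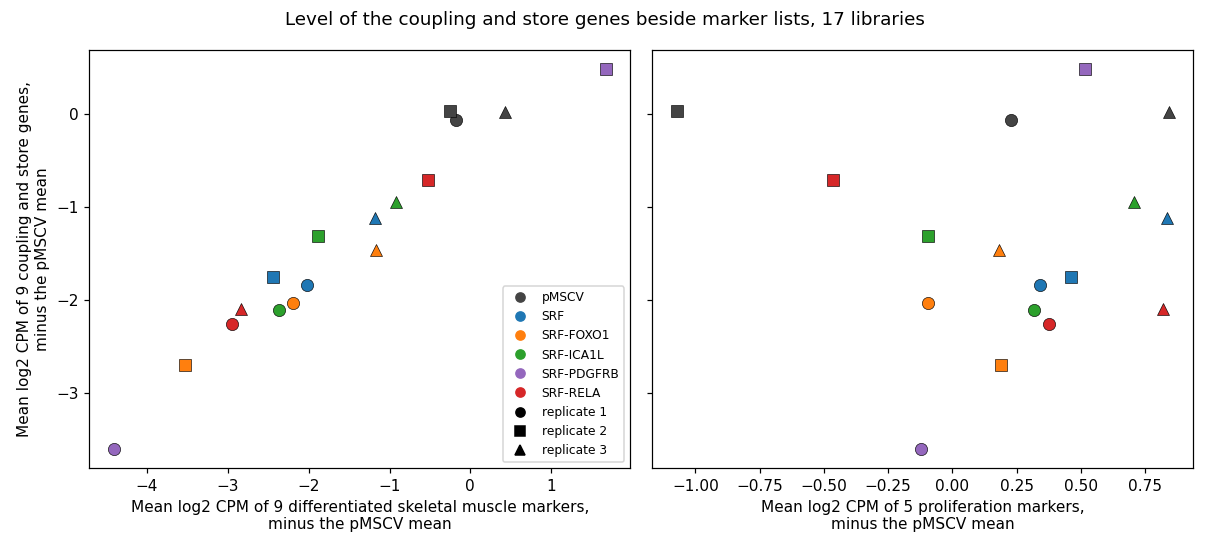
The vertical axis is the mean log2 CPM of the 9 coupling and store genes minus the pMSCV mean, against the same measure for 9 differentiated skeletal muscle markers (left) and 5 proliferation markers (right). Each point is 1 of 17 libraries. The libraries lie along a line on the left (correlation 0.974) and show no such order on the right (-0.03), with SRF-PDGFRB replicates 1 and 2 at -3.60 and 0.49 on the vertical axis.

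Pooled, the other listed genes of coupling and calcium handling had median differences from pMSCV closer to 0. Of 54 listed genes 41 were in the table. In the fit over 17 libraries none was called in any of the 9 comparisons by edgeR, and their median log2 fold change from pMSCV was -0.17 in SRF-ICA1L, -0.16 in SRF, -0.08 in SRF-FOXO1 and -0.06 in SRF-RELA. At an unadjusted p under 0.05, 10 were lower and 4 higher in SRF-FOXO1, where 10.6% and 10.3% of all genes were. The counts were 7 and 3 in SRF-RELA (4.17% and 3.88% of all genes), 4 and 2 in SRF-ICA1L (3.27% and 2.95%), and 2 and 1 in SRF (2.14% and 1.2%). The store and pump genes alone had a median of -0.69 in SRF and -0.22 in SRF-FOXO1 over 17 libraries. It was -0.17 in SRF-ICA1L and -0.06 in SRF-RELA. Mean log2 levels correlated with that of the 9 genes at 0.830 for store and pump genes and 0.729 for triad and tubule genes. For genes of calcium entry, release and efflux the correlation was 0.520. The part of these genes in the result was not tested.

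With the block, triad and tubule genes, 11 of 17 in the table, gave 2 lower calls in SRF-ICA1L (1.63% of all genes were called lower) and 4 in SRF-RELA (3.35%). Cacnb1, which encodes the beta subunit of the same channel, was at 21.9, 27.4 and 15.6 CPM in pMSCV and at 5.92, 6.38 and 8.29 CPM in SRF-ICA1L. It was at 5.97, 8.62 and 5.41 CPM in SRF-RELA, 9.72, 6.95 and 7.10 CPM in SRF, and 7.41, 4.88 and 7.18 CPM in SRF-FOXO1. No library of these lines reached the lowest pMSCV library. The same held for 5.54% of all genes in SRF-ICA1L, 5.91% in SRF-RELA, 5.15% in SRF and 11.6% in SRF-FOXO1. The log2 fold change of Cacnb1 was -1.62 (SE 0.25, adjusted p = 0.0124, edgeR) in SRF-ICA1L and -1.69 (SE 0.25, adjusted p = 0.00519) in SRF-RELA. Bin1, which shapes the transverse tubule, changed less, at -0.63 and -0.75. In SRF-RELA, Jsrp1, which encodes a triad protein, had a log2 fold change of -2.12, and Stac2, a paralogue of Stac3, one of -0.47.

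Store and pump genes, 13 of 18 in the table, gave 3 lower calls in SRF-RELA, where 3.35% of all genes were called lower: Hrc (-2.79), a histidine-rich calcium-binding protein of the store, Mrln (-2.26), a micropeptide inhibitor of SERCA, and Tmem38b (-0.88), a store cation channel. Calr, the calcium buffer of the endoplasmic reticulum in most cells, went the other way. It was at 1222, 1057 and 899 CPM in pMSCV, 2432, 1853 and 1304 CPM in SRF-ICA1L, and 2452, 1900 and 1484 CPM in SRF-RELA, and was called higher in both, as were 1.18% and 2.9% of all genes (0.78, SE 0.12, adjusted p = 0.0128, and 0.85, SE 0.12, adjusted p = 0.00434, edgeR). Against SRF, Fkbp1b, which encodes a ryanodine receptor binding protein, was called higher in SRF-RELA with the block (1.51, SE 0.27). In that comparison 0.644% of all genes were called in either direction. Of the genes of calcium entry, release and efflux outside the triad, 17 of 19 in the table, none was called with the block.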

How the data were processed

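The authors deposited raw read counts for 15062 genes in 17 libraries. Per the submitters' processing notes the tools named were FastQC 0.11.8, Trimmomatic 0.39, HISAT2 2.12.1 and featureCounts (Subread 2.0.0), with genome build GRCm38; the annotation and the strand setting are not given in the sources used here. Per the labels' protocols, libraries were made with a TruSeq stranded mRNA kit. Rows without a symbol (1531) held 0.555% to 1.13% of a library's counts, carried gene identifiers and stayed in the tests.

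In R 4.3.3, edgeR 4.0.16 (with limma 3.58.1) was used for TMM scaling and for a robust quasi-likelihood test, fitted over all 17 libraries with a term for group. P-values were adjusted by Benjamini-Hochberg over all genes, and a gene was called when its adjusted p was under 0.05. Standard errors (SE) are log2 fold changes divided by the square root of F. Log2 CPM uses a prior count of 2. The biological coefficient of variation was 36.5%. Standard errors come from the fit and take in the spread between libraries. Ratios on a floor of 3 counts in SRF-PDGFRB replicate 1 carry neither counting error nor that spread. The scripts were tested on simulated data.

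Alternatives were DESeq2 1.42.0, RLE scaling, a filter of at least 1 CPM in at least 3 libraries, replicate blocks, fewer groups and leaving out libraries. Same-numbered libraries correlated in all 18 pairs among SRF-RELA, SRF-ICA1L, SRF and pMSCV (0.392 to 0.789). The 3 pairs between SRF-FOXO1 and SRF correlated less (0.220 to 0.330). The 9 pairs of SRF-FOXO1 with SRF-ICA1L, SRF-RELA and pMSCV ran from -0.20 to 0.50. These correlations are the source of the pairing, as the labels give numbers alone. All 10 genes were named by rule, as were the 5 genes of most similar pattern among symbols with a mean of at least 1 CPM. The genes and lists were chosen with earlier results of these data known.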

Additional observations from a re-analysis of the deposited data

How the results depend on the processing

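Against 0 called genes over 17 libraries, SRF-FOXO1 versus pMSCV gave 4 with DESeq2, 2 with the replicate block over 17 libraries, 2 with only the 2 groups and 3 without SRF-PDGFRB. Over all genes, the fit over 17 libraries called 107, the block over 17 libraries 1021 and the fit without SRF-PDGFRB 625. DESeq2 called 701 lower. For only the 2 groups this number is not given here. SRF-ICA1L versus pMSCV gave 5 with the replicate block over 12 libraries, and SRF-RELA 5 there and 3 with the block in 2 groups. Both counts of 5 include Cacna1s, which is in the table through its pMSCV level. The block over 12 libraries called 423 of all genes in SRF-ICA1L and 941 in SRF-RELA, against 0 in each over 17 libraries without it. For the block in 2 groups this number is not given here. SRF-FOXO1 versus SRF gave 1 with the block in 2 groups. The block changed no other call. Leaving out 1 library gave 0 in each comparison between groups over 17 libraries. With the block over 12 it gave 0 to 1 in SRF (0 to 80 of all genes), 0 to 6 in SRF-ICA1L (23 to 570) and 1 to 6 in SRF-RELA (239 to 1217). For replicate number, 1 gene was called, 2 with DESeq2, 2 over 15 libraries and 1 to 3 leaving out a library. Of all 15062 genes, 7740 were called for replicate number in the main fit. Over its 16 alternative settings, 4333 to 8356 of all genes were called, so these counts do not set the listed genes apart.

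Of 561 alternative values of single genes, 528 kept direction and side of the threshold, 25 passed it newly and 8 reversed. Trdn in SRF-ICA1L versus pMSCV, -0.08 over 17 libraries, was 0.24, 0.20 and 0.16 with the replicate block over 17 libraries, 12 libraries and 2 groups, and ran from -0.40 to 0.80 leaving out a library. Trdn in SRF-RELA ran from -1.17 to 1.73 and Cacng1 in SRF-ICA1L versus SRF from -1.08 to 0.26. The cause was not tested. The median of the 9 genes in SRF-PDGFRB versus pMSCV was -0.27, -1.65 with the replicate block in 2 groups and -4.37 without SRF-PDGFRB replicate 2; versus SRF it was -1.94 without it. Casq1 and Cacna1s rest on the fewest reads, 53 counts or fewer per library outside SRF-PDGFRB.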
